A study of Homo sapiens with 15 samples.

Results

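NTERA2 cells given an siRNA against IGF2BP1 were compared with NTERA2 cells given a control siRNA. The NTERA2 line, long established from a human germ cell tumour of the embryonal carcinoma type, carries the markers of pluripotent cells. The comparison was chosen by the siRNA named in the column headers of the count table and takes in 6 of the 15 libraries, 3 labelled siIGF2BP1 and 3 labelled siControl. All 15 libraries came from cells treated with siRNA 2 times over 7 days, and the other 9 received siRNAs against SRF, FOXM1 or IQGAP3. No sequence or number of distinct siRNAs per target was given in the sources used here. Libraries are numbered 1 to 3 by column order only to name them, and the labels do not say whether each had its own culture. P-values set the difference between groups against the spread of libraries within groups, pooled over all 5 groups. That spread may therefore be only technical.

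IGF2BP1 is an RNA-binding protein that holds its target mRNAs in cytoplasmic ribonucleoprotein particles and protects many of them from decay, and it is one of the readers of N6-methyladenosine in mRNA. It is made in the embryo, is largely silent in adult tissues and returns in many tumours, for which it is called oncofetal. In cell lines it is known to lengthen the life of mRNAs for growth and transcription factors, MYC and SRF among them. The comparison asks which transcripts changed in level when IGF2BP1 was lowered in a pluripotent tumour line. In bulk RNA, fewer cells of a kind and less RNA per cell cannot be told apart.

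The target itself was lower in every knockdown library. IGF2BP1 was at 809.9, 1039 and 786 CPM (counts scaled to a common library size after TMM adjustment) in siControl libraries 1 to 3. It was at 166, 169.6 and 213 CPM in siIGF2BP1 libraries 1 to 3, so the groups did not overlap and every knockdown library kept a measurable level. IGF2BP1 fell by edgeR's quasi-likelihood test. IGF2BP1 had a log2 fold change of -2.26 ± 0.16 at adjusted p = 5.23e-05, and of -2.34 ± 0.16 at adjusted p = 2.30e-05 without siControl library 3. IGF2BP1 is also 1 of 8 genes, among 20407 in both deposited tables, for which the counts and the normalised values of these 6 libraries do not match. For IGF2BP1 the normalised value minus the scaled count was 94.6, -3210.1 and 5000 in siControl libraries 1 to 3, while the siIGF2BP1 libraries matched. Which table holds the measured level was not tested. The paralogs IGF2BP2 and IGF2BP3, which bind RNA through the same kind of domains, did not pass the test. IGF2BP2 was at 117, 100.2 and 265 CPM in the siControl libraries and 85.3, 81.9 and 104 CPM in the siIGF2BP1 libraries, with siControl library 3 far above the other two. Its log2 fold change of -0.83 ± 0.32 at adjusted p = 0.238 was -0.27 ± 0.21 at adjusted p = 0.604 without that library. IGF2BP3 had log2 fold changes of -0.56 ± 0.31 at adjusted p = 0.421 and -0.25 ± 0.31 at adjusted p = 0.776, with overlapping groups.

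The third library of both groups stood apart from the other two of its group. Principal components were taken over the log2 CPM values of all 15 libraries. On the leading component siControl library 3 scored 131.5, against -51.4 and -75.8 for siControl libraries 1 and 2. The siIGF2BP1 libraries scored -85.0 to -49.2 there, and the siIQGAP3 libraries 156.6 to 157.1. Library 3 of siIGF2BP1 stood apart from its own group on the second component, at -61.1 against 50.9 and 51.8 for libraries 1 and 2. The siSRF libraries split in the same way, at 56.4, 56.2 and -80.5. Those of siFOXM1 (-26.7 to -24.8) and siIQGAP3 (19.5 to 21.7) did not. The root mean square difference in log2 CPM of siIGF2BP1 library 3 from siIGF2BP1 libraries 1 and 2 was 0.925 and 0.937. From siControl libraries 1 and 2 it was lower, 0.807 and 0.823, while siIGF2BP1 libraries 1 and 2 differed by 0.324. Of 7 fibroblast markers, COL3A1, DCN and LUM were nearly missing from siControl library 3 and COL1A2 was low at 40.2 CPM. COL1A1 was still at 1668 CPM there, and THY1 and PDGFRB were highest in that library, at 235 and 66.98 CPM. COL3A1, a fibrillar collagen, was at 2446, 2728 and 3.52 CPM in siControl libraries 1 to 3 and at 2430.0, 2343 and 3837 CPM in the siIGF2BP1 libraries. DCN, the proteoglycan decorin, was at 237, 275 and 0 CPM and at 209, 195 and 322 CPM in the same libraries. LHX9, a LIM homeobox factor chosen after its values were seen, was at 478, 529 and 0.0213 CPM and at 409, 369 and 458 CPM. In COL3A1, DCN and LHX9 siControl library 3 lay far below all 5 other libraries. The sum of 9 pluripotent cell markers ran from 1672 to 4130 CPM in siControl, highest in library 3, and from 342 to 429.6 CPM in siIGF2BP1, so these groups did not overlap. Of the 9, 4 were called lower, POU5F1, NANOG, TDGF1 and PODXL, against 1.62% of all genes tested that were called. TDGF1 and PODXL lost the call without siControl library 3 (then at adjusted p = 0.0709 and 0.0948). DPPA4, SALL4, L1TD1 and LIN28A were not called, at adjusted p = 0.084, 0.061, 0.159 and 0.365. Without siControl library 3 these were 0.206, 0.134, 0.535 and 0.577. L1TD1 overlapped between the groups. SOX2 was at 59.3, 35.7 and 176 CPM in siControl and 47.2, 53.6 and 13.4 CPM in siIGF2BP1, with overlapping groups (adjusted p = 0.4998, and 0.904 without siControl library 3). POU5F1 and NANOG in that sum are also among the 8 genes on which the tables differ. The sum of 7 fibroblast markers ran from 2018 CPM in siControl library 3 to 10875 CPM in siIGF2BP1 library 3, with none of the 7 called. Tests of named genes against siControl are therefore given below with and without siControl library 3. The depth of the 6 libraries was 39480604 to 44996064 counts.

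**Figure D1:**
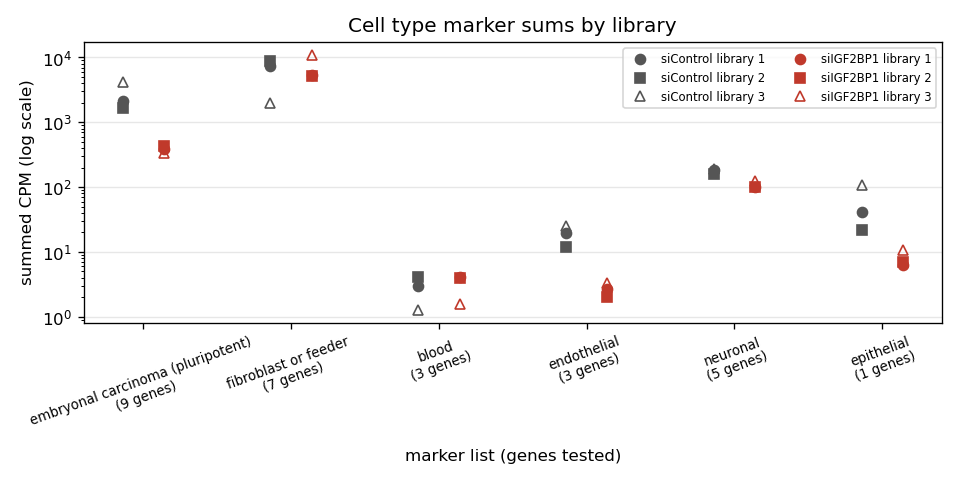
Summed CPM (vertical axis, log scale) of 6 lists of cell type markers in each of the 3 siControl libraries (grey) and 3 siIGF2BP1 libraries (red), with library 3 of each group as an open triangle. The fibroblast sum of siControl library 3, 2018 CPM, lies below the other 5 libraries, and the pluripotent sums of the 2 groups do not overlap.

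The sums of endothelial, neuronal and epithelial markers were lower in siIGF2BP1 with no overlap between the groups, and those of blood markers overlapped. Each of these sums rests on few genes. Of all single genes tested, 17.3% did not overlap between the groups and 1.62% were called. The endothelial sum was 11.9 to 25.1 CPM in siControl and 2.04 to 3.27 CPM in siIGF2BP1, with CDH5 and VWF called among 3 genes tested and PECAM1 too low to test. KDR, also tested, overlapped between the groups. Its log2 fold change was -0.87 at adjusted p = 0.571, and 0.76 at adjusted p = 0.424 without siControl library 3. The 3 blood markers tested summed to 1.28 to 4.13 CPM over the 6 libraries, with HBB at 0 in each of them and PTPRC and CD3E too low to test. The 5 neuronal markers summed to 159.6 to 188 CPM in siControl and 98.9 to 125 CPM in siIGF2BP1, with none called. Most of that sum was TUBB3, at 154, 130 and 142 CPM in siControl and 76, 78.7 and 86.8 CPM in siIGF2BP1. TUBB3 and STMN2 were lower in siIGF2BP1 without overlap, while SYT1, SNAP25 and RBFOX3 overlapped between the groups. EPCAM, at 40.9, 21.8 and 108 and 6.19, 7.09 and 10.6 CPM and called lower, was the single epithelial marker tested, since KRT5, KRT14 and KRT20 were too low. Whether a shift in cell types has a part in the results was not tested.

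Of 18760 genes tested, 303 changed after IGF2BP1 siRNA (1.62%), 54 of them higher (0.288%) and 249 lower (1.33%). In all 303 the siIGF2BP1 and siControl libraries did not overlap, against 17.3% of all genes tested. The median log2 fold change was 1.87 for the genes that rose and -2.83 for those that fell. Without siControl library 3, 220 of 18965 genes tested were higher (1.16%) and 300 were lower (1.58%). Both fits called 242 of the 303, 44 higher and 198 lower. All 303 kept their direction without that library and also against that library alone. This follows from the lack of overlap and is no separate test. In 193 of the 249 genes that fell, siControl library 3 was above the mean of the other two, and the median of the 249 was -2.34 without it. Without siIGF2BP1 library 3, 191 genes passed, 52 higher and 139 lower, and 157 of the 303 kept their call, 37 higher and 120 lower. That library was the lowest of its group in 39 of the 54 genes that rose and the highest in 131 of the 249 that fell. Removing any 1 of the 6 libraries left 63 of the 303 called throughout, 9 higher and 54 lower. The spread behind these calls was pooled over all 5 groups: with only the 6 libraries in the fit 4 genes passed, SRF, POU5F1, NANOG and KLF4, all genes on which the deposited tables differ.

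**Figure D2:**
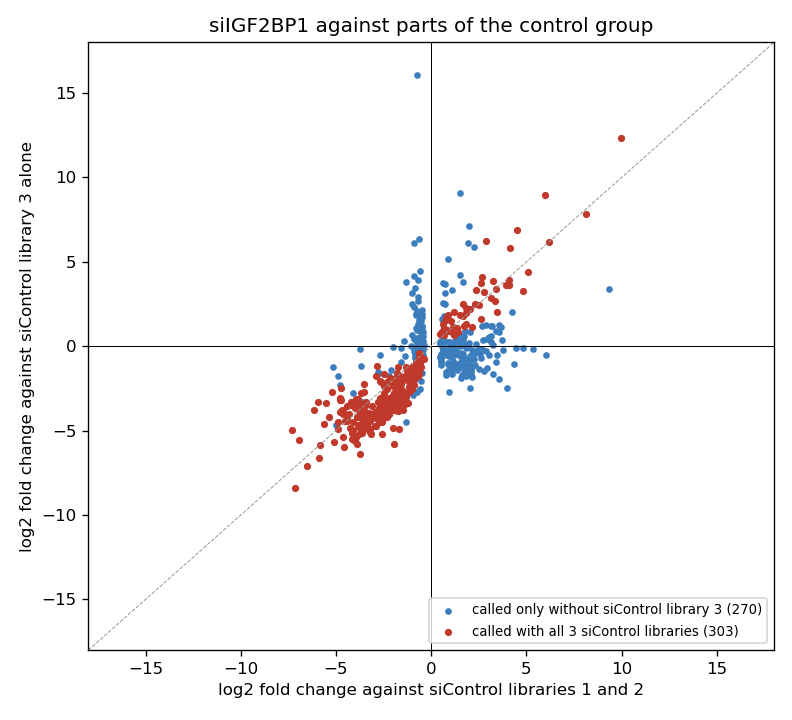
Each point is a gene, placed by its log2 fold change in siIGF2BP1 against siControl libraries 1 and 2 (horizontal axis) and against siControl library 3 alone (vertical axis). The 303 genes called with all controls (red) lie in the lower left and upper right quadrants, which the lack of overlap between their groups fixes. Of the 270 genes called only without library 3 (blue), 169 have opposite signs on the axes.

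Genes of epithelial adhesion were among those that fell and kept their calls. CDH1 encodes E-cadherin, the main adhesion molecule of epithelial and pluripotent cells. It was at 126, 76.4 and 293 CPM in siControl libraries 1 to 3 and at 4.35, 4.02 and 15.9 CPM in siIGF2BP1 libraries 1 to 3. The lowest control was still above the highest knockdown library, and CDH1 fell with or without siControl library 3. CDH1 had a log2 fold change of -4.34 ± 0.62 at adjusted p = 0.00419, and of -3.64 ± 0.53 at adjusted p = 0.00528 without siControl library 3. CLDN4, a claudin of tight junctions, was at 20.6, 14.9 and 34.2 CPM in the control libraries and 3.096, 2.92 and 4.61 CPM in the knockdown libraries. CLDN4 had a log2 fold change of -2.71 ± 0.37 at adjusted p = 0.00328, and of -2.32 ± 0.33 at adjusted p = 0.00392 without siControl library 3. ITGA6, the integrin chain of laminin receptors, moved less but with little spread, from 76.2, 58.7 and 84.2 to 39.1, 37.01 and 37.2 CPM. ITGA6 had a log2 fold change of -0.95 ± 0.13 at adjusted p = 0.00328, and of -0.84 ± 0.11 at adjusted p = 0.003004 without siControl library 3. EZR encodes ezrin, which ties the membrane to actin filaments. Its levels of 243, 177 and 296 CPM became 103, 103 and 103 CPM, the 3 knockdown libraries lying within 1 CPM of each other. EZR had a log2 fold change of -1.21 ± 0.16 at adjusted p = 0.00241, and of -1.03 ± 0.12 at adjusted p = 0.00153 without siControl library 3. These 4 genes passed whichever of the 6 libraries was left out.

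Other adhesion genes fell with calls that were lost when 1 library was left out. Without siIGF2BP1 library 1 or 2 the count of all genes called was 67 and 76, against 303 with all libraries. EPCAM, an epithelial adhesion molecule, was at 40.9, 21.8 and 108 CPM in siControl and 6.19, 7.09 and 10.6 CPM in siIGF2BP1, highest in siControl library 3. EPCAM had a log2 fold change of -2.84 ± 0.54 at adjusted p = 0.0205, and of -1.98 ± 0.41 at adjusted p = 0.0263 without siControl library 3. The EPCAM call ended without siIGF2BP1 library 1 or 2 (then at adjusted p = 0.141 and 0.128), with log2 fold changes of -2.69 and -2.76. The cadherin list had 3 of 20 members lower and none higher (15%, against 1.62% of all genes tested), CDH1, CDH3 and CDH5. Without siControl library 3 it had 2 lower and 1 higher, CDH2 or N-cadherin, whose log2 fold change was 1.08 at adjusted p = 0.424 with all controls and 2.68 at adjusted p = 0.00179 without that library. The list median was -0.46 and -0.05 with and without siControl library 3. CDH3, P-cadherin, was at 28.6, 20.9 and 102 and 8.23, 9.78 and 10.4 CPM. CDH3 had a log2 fold change of -2.41 ± 0.55 at adjusted p = 0.0481, and of -1.38 ± 0.38 at adjusted p = 0.0864 without siControl library 3. CDH3 failed without siControl library 1 or 3 (then at adjusted p = 0.0543 and 0.0864) or siIGF2BP1 library 1, 2 or 3 (then at adjusted p = 0.234, 0.212 and 0.107). CDH5, the cadherin of endothelial junctions, was at 12.7, 7.06 and 9.79 CPM in siControl and at 0.0755, 0.226 and 0.201 CPM in siIGF2BP1. CDH5 had a log2 fold change of -5.85 ± 1.002 at adjusted p = 0.0134, and of -5.85 ± 1.04 at adjusted p = 0.0148 without siControl library 3. The CDH5 call was lost without siIGF2BP1 library 1 or 2 (then at adjusted p = 0.101 and 0.0854).

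Among 17 claudins 2 fell and none rose (11.8%, against 1.62% of all genes tested), CLDN4 and CLDN6. Without siControl library 3, 1 was lower and 1 higher, CLDN11, with a log2 fold change of 2.18 at adjusted p = 0.1404 with all controls and 3.19 at adjusted p = 0.02999 without that library. The list median was -0.36 and -0.53 with and without siControl library 3. CLDN6, an embryonic claudin, went from 223, 156 and 408 to 28.6, 32.4 and 73.1 CPM. CLDN6 had a log2 fold change of -2.55 ± 0.58 at adjusted p = 0.0481, and of -2.08 ± 0.58 at adjusted p = 0.09096 without siControl library 3. CLDN6 failed without siControl library 1 or 3 (then at adjusted p = 0.085 and 0.09096) or siIGF2BP1 library 1, 2 or 3 (then at adjusted p = 0.241, 0.237 and 0.05001). Of 26 integrins, ITGA6 and its partner chain ITGB4 fell and none rose (7.69%), in both fits. ITGB4 levels of 14.4, 10.97 and 14.2 CPM became 4.304, 4.32 and 3.802 CPM. ITGB4 had a log2 fold change of -1.67 ± 0.26 at adjusted p = 0.00733, and of -1.61 ± 0.26 at adjusted p = 0.00936 without siControl library 3. The ITGB4 call ended only without siIGF2BP1 library 1 (then at adjusted p = 0.0504). The integrin median was -0.48 and -0.19 with and without siControl library 3, beside 0.01 and 0.02 for all genes tested.

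The following 4 transcription factors fell, and no list of epithelial factors was counted. Of 464 numbered zinc finger genes, ZNF750 among them, 1 rose and 2 fell (0.647%, against 1.62% of all genes tested). Of 42 forkhead genes FOXI3 and FOXM1 fell and none rose (4.76%), and FOXC2 was also higher without siControl library 3. Of 16 PIWI pathway and germ cell genes TFAP2C fell and none rose (6.25%). GRHL3, a grainyhead-like factor of surface epithelia, was at 154, 100.3 and 74.6 CPM in siControl and 3.196, 3.82 and 12.7 CPM in siIGF2BP1. GRHL3 had a log2 fold change of -4.05 ± 0.52 at adjusted p = 0.00241, and of -4.27 ± 0.53 at adjusted p = 0.00218 without siControl library 3. ZNF750, a zinc finger factor of epidermal differentiation, was at 3.92, 2.77 and 1.302 CPM in the control libraries and at 1 read in each of the knockdown libraries. The summed counts were 317 and 3, a ratio of 105 with a 95% counting interval of 35.5 to 509.9, exact and for counting error only. ZNF750 had a log2 fold change of -6.61 ± 0.73 at adjusted p = 0.000913, and of -6.94 ± 0.64 at adjusted p = 0.000311 without siControl library 3. TFAP2C, an AP-2 factor of trophoblast and germ cells, went from 45.9, 29.7 and 82.9 to 8.81, 7.27 and 6.84 CPM. TFAP2C had a log2 fold change of -2.79 ± 0.39 at adjusted p = 0.00357, and of -2.31 ± 0.33 at adjusted p = 0.00416 without siControl library 3. FOXI3, a forkhead factor of ectodermal appendages, went from 28.9, 15.6 and 41.6 to 3.32, 2.99 and 4.32 CPM. FOXI3 had a log2 fold change of -3.02 ± 0.32 at adjusted p = 0.000754, and of -2.65 ± 0.26 at adjusted p = 0.000524 without siControl library 3. In GRHL3, ZNF750, TFAP2C and FOXI3 no knockdown library reached the lowest control, and none lost its call when a library was left out.

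A further 3 regulators, GRHL2, OVOL1 and KDF1, were chosen after their values were seen. GRHL2, the paralog of GRHL3, was at 4.33, 3.23 and 4.63 CPM in siControl and 0.201, 0.151 and 0.403 CPM in siIGF2BP1. GRHL2 had a log2 fold change of -3.99 ± 0.44 at adjusted p = 0.000801, and of -3.88 ± 0.43 at adjusted p = 0.00103 without siControl library 3, and passed in all 6 fits with a library left out. OVOL1, a zinc finger repressor of epithelial progenitors, went from 3.11, 1.66 and 2.09 to 0.327, 0.478 and 0.783 CPM. OVOL1 had a log2 fold change of -2.1 ± 0.41 at adjusted p = 0.0236, and of -2.16 ± 0.42 at adjusted p = 0.0212 without siControl library 3. OVOL1 failed without siControl library 1 (then at adjusted p = 0.08196) or siIGF2BP1 library 1 or 2 (then at adjusted p = 0.146 and 0.145). KDF1, a keratinocyte differentiation factor, had a log2 fold change of -2.69 ± 0.57 at adjusted p = 0.0377 and of -2.06 ± 0.51 at adjusted p = 0.0563 without siControl library 3. KDF1 failed without siControl library 1 or 3 (then at adjusted p = 0.0596 and 0.0563) or siIGF2BP1 library 1, 2 or 3 (then at adjusted p = 0.169, 0.132 and 0.103).

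**Figure D3:**
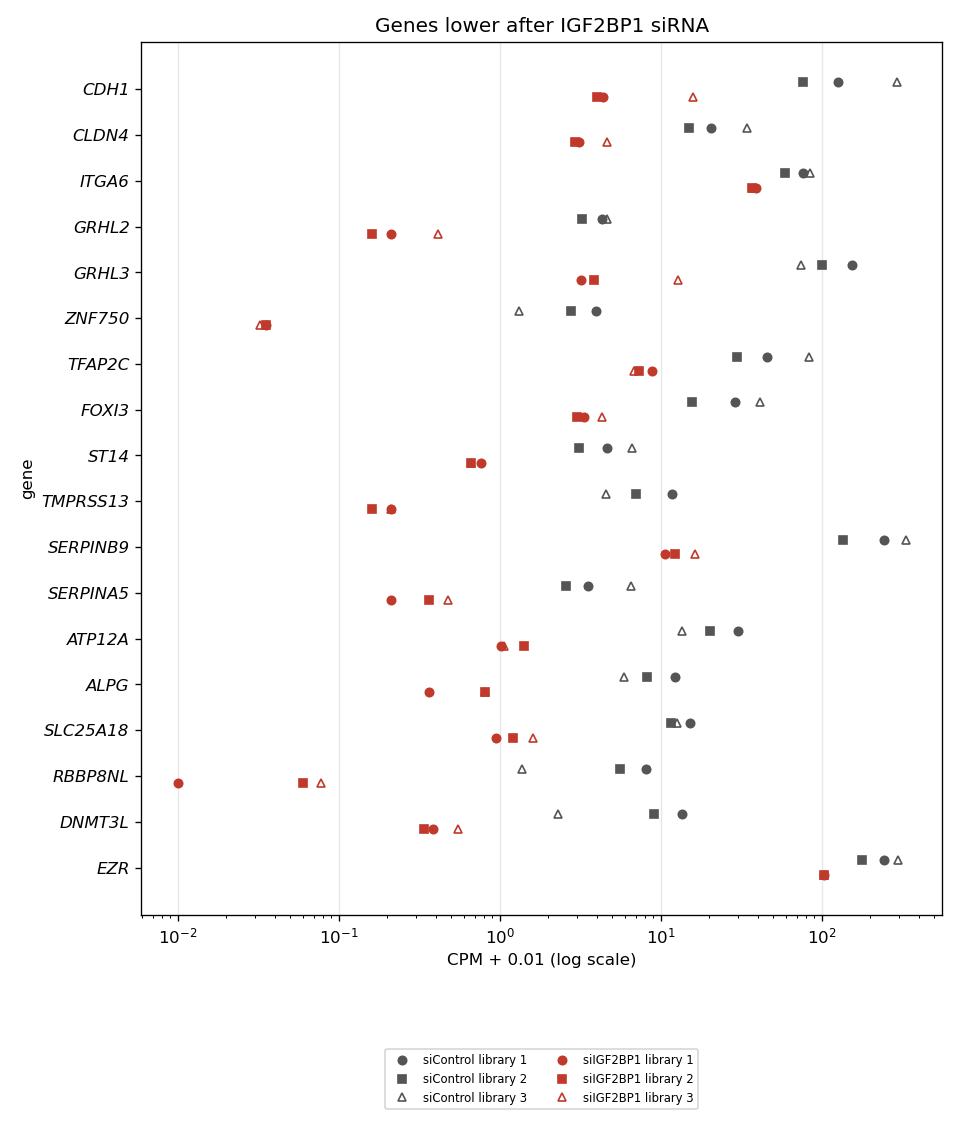
CPM plus 0.01 (horizontal axis, log scale) of 18 genes called lower in siIGF2BP1 in all 6 fits with a library left out, for the 3 siControl libraries (grey) and the 3 siIGF2BP1 libraries (red), with library 3 of each group as an open triangle. No red symbol reaches a grey one in any row, and siControl library 3 is the highest control for some genes, such as CDH1, and the lowest for others, such as ATP12A.

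TMPRSS13, ST14 and TMPRSS2, proteases of the cell surface, fell, and no list of proteases was counted. TMPRSS13, a membrane-anchored serine protease, was at 11.7, 6.98 and 4.54 CPM in siControl and 0.201, 0.151 and 0.201 CPM in siIGF2BP1. TMPRSS13 had a log2 fold change of -5.37 ± 0.46 at adjusted p = 0.000101, and of -5.64 ± 0.398 at adjusted p = 2.89e-05 without siControl library 3. ST14, the related protease matriptase, went from 4.64, 3.096 and 6.62 to 0.755, 0.654 and 0.649 CPM. ST14 had a log2 fold change of -2.797 ± 0.36 at adjusted p = 0.00241, and of -2.49 ± 0.32 at adjusted p = 0.00252 without siControl library 3. TMPRSS2 had log2 fold changes of -2.59 ± 0.44 at adjusted p = 0.01205 and -2.503 ± 0.45 at adjusted p = 0.0154 with and without siControl library 3 and failed without siIGF2BP1 library 1 or 2 (then at adjusted p = 0.0787 and 0.0918). ST14 and TMPRSS2 were chosen after their values were seen. Of 16 serpins, 2 fell and none rose in both fits (12.5%, against 1.62% of all genes tested), with a median of -0.48 that was 0.16 without siControl library 3. SERPINB9, an inhibitor of granzyme B, went from 244, 135 and 332 to 10.6, 12.3 and 16.3 CPM. SERPINB9 had a log2 fold change of -4.18 ± 0.52 at adjusted p = 0.00191, and of -3.86 ± 0.52 at adjusted p = 0.003004 without siControl library 3. SERPINA5, the protein C inhibitor, went from 3.54, 2.55 and 6.49 to 0.201, 0.352 and 0.4697 CPM. SERPINA5 had a log2 fold change of -3.605 ± 0.49 at adjusted p = 0.00328, and of -3.14 ± 0.44 at adjusted p = 0.00366 without siControl library 3. TMPRSS13, ST14 and both serpins passed with any library left out.

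The pluripotent state genes that fell included regulators outside the core factors. PRDM14, a repressor of differentiation in pluripotent and germ cells, was at 26.4, 15.99 and 39.03 CPM in siControl and 1.18, 0.8297 and 1.63 CPM in siIGF2BP1. PRDM14 had a log2 fold change of -4.48 ± 0.35 at adjusted p = 7.80e-05, and of -4.12 ± 0.29 at adjusted p = 2.89e-05 without siControl library 3. DNMT3L, a cofactor of de novo DNA methylation, was at 13.6, 9.04 and 2.31 CPM and 0.378, 0.327 and 0.537 CPM, with siControl library 3 the lowest control. DNMT3L had a log2 fold change of -4.31 ± 0.58 at adjusted p = 0.00295, and of -4.76 ± 0.36 at adjusted p = 4.77e-05 without siControl library 3. NLRP7, an NLR protein of the oocyte and early embryo, was at 6.78, 4.24 and 14.5 and 0.101, 0.302 and 0.268 CPM. NLRP7 had a log2 fold change of -5.23 ± 0.71 at adjusted p = 0.00328, and of -4.599 ± 0.62 at adjusted p = 0.00298 without siControl library 3. LEFTY1, an inhibitor of Nodal, went from 8.05, 4.29 and 16.3 to 0.428, 0.503 and 0.604 CPM. LEFTY1 had a log2 fold change of -4.21 ± 0.48 at adjusted p = 0.00105, and of -3.58 ± 0.36 at adjusted p = 0.000524 without siControl library 3. Its near copy LEFTY2 had a log2 fold change of -5.33 ± 1.17 at adjusted p = 0.0432, -5.13 ± 1.22 at adjusted p = 0.0492 without siControl library 3. LEFTY2 failed without siControl library 1 (then at adjusted p = 0.0835) or siIGF2BP1 library 1, 2 or 3 (then at adjusted p = 0.2198, 0.218 and 0.0653). Reads could be split between LEFTY1 and LEFTY2, so the values of both are uncertain. PRDM14, DNMT3L, NLRP7 and LEFTY1 passed with any library left out.

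The core factors POU5F1 and NANOG, with KLF4, MYC and the other siRNA targets, fell too, in values that differ between the deposited tables. The core factor SOX2 was not called. Its log2 fold change was -1.25 at adjusted p = 0.4998, and -0.32 at adjusted p = 0.904 without siControl library 3. POU5F1 (OCT4) was at 906, 874 and 711 CPM in siControl and 45.6, 50.4 and 35.8 CPM in siIGF2BP1. POU5F1 had a log2 fold change of -4.24 ± 0.49 at adjusted p = 0.00107, and of -4.34 ± 0.52 at adjusted p = 0.00158 without siControl library 3. NANOG was at 80.02, 100.2 and 69.5 and 3.35, 3.62 and 2.15 CPM. NANOG had a log2 fold change of -4.78 ± 0.51 at adjusted p = 0.000754, and of -4.89 ± 0.53 at adjusted p = 0.000988 without siControl library 3. KLF4 was at 234, 269 and 138 and 19.6, 20.3 and 19.2 CPM. KLF4 had a log2 fold change of -3.44 ± 0.29 at adjusted p = 0.000101, and of -3.67 ± 0.24 at adjusted p = 2.30e-05 without siControl library 3. The transcripts of MYC and SRF, which IGF2BP1 is known to bind, fell as well. MYC went from 746, 888 and 491 to 64.2, 66.4 and 40.5 CPM, with a log2 fold change of -3.63 ± 0.303 at adjusted p = 0.000101, and of -3.84 ± 0.28 at adjusted p = 3.66e-05 without siControl library 3. SRF went from 82.8, 92.2 and 86.7 to 7.63, 7.92 and 5.301 CPM, the smallest p of the comparison. SRF had a log2 fold change of -3.65 ± 0.17 at adjusted p = 3.90e-07, and of -3.65 ± 0.17 at adjusted p = 1.64e-06 without siControl library 3. FOXM1, a cell cycle factor, and IQGAP3, a scaffold protein, had log2 fold changes of -1.74 ± 0.27 at adjusted p = 0.00773 and -2.48 ± 0.296 at adjusted p = 0.00137, and -1.803 ± 0.29 at adjusted p = 0.00939 and -2.63 ± 0.302 at adjusted p = 0.00131 without siControl library 3. For the 7 genes above that fell, and for IGF2BP1, the tables differed in 28 entries of the 6 libraries. There the deposited normalised value departed from the count times the library's factor by -11.3% to 21.5%. In 9 of the 28 entries, in 7 of the 8 genes, the difference was a whole multiple of 50 within 0.01, such as 5000 for IGF2BP1 and FOXM1 and 5900 for POU5F1 in siControl library 3. The other 20399 genes in both tables matched within 1e-06 of their value. The values of these 8 genes are therefore given as deposited counts whose source is uncertain. All 8 were called lower with any 1 library left out, and without them the count of genes called was 295.

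Membrane proteins used as stem cell markers fell in part. Of the 16 cancer stem cell surface markers tested, 5 fell and none rose (31.2%, against 1.62% of all genes tested), ITGA6, EPCAM, CD9, CD24 and PODXL. The list median was -0.51 and -0.31 with and without siControl library 3. The 5 called became 3 without siControl library 3. CD9, a tetraspanin, was at 183, 135 and 459 CPM in siControl and 86.2, 81.1 and 66.9 CPM in siIGF2BP1. CD9 had a log2 fold change of -1.73 ± 0.36 at adjusted p = 0.0352, and of -1.03 ± 0.203 at adjusted p = 0.0223 without siControl library 3. CD9 failed without siIGF2BP1 library 1, 2 or 3 (then at adjusted p = 0.144, 0.156 and 0.101). CD24, a small surface glycoprotein whose pseudogenes could take reads, was at 237, 154 and 411 and 60.5, 66.1 and 48.5 CPM. CD24 had a log2 fold change of -2.19 ± 0.49 at adjusted p = 0.0458, and of -1.74 ± 0.48 at adjusted p = 0.0879 without siControl library 3. CD24 failed without siControl library 1 or 3 (then at adjusted p = 0.0842 and 0.0879) or siIGF2BP1 library 1, 2 or 3 (then at adjusted p = 0.201, 0.181 and 0.122). PODXL, podocalyxin, was at 478, 307 and 1666 and 88.4, 95.6 and 165 CPM, with siControl library 3 more than 1000 CPM above the other controls. Its log2 fold change of -2.81 ± 0.64 at adjusted p = 0.04804 was -1.75 ± 0.49 at adjusted p = 0.0948 without that library, and the call was also lost without siControl library 1 or 3 (then at adjusted p = 0.0582 and 0.0948) or siIGF2BP1 library 1, 2 or 3 (then at adjusted p = 0.237, 0.23 and 0.0802).

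Enzymes, transporters and an immune surface gene were among the other genes that fell. ATP12A, a proton and potassium pump of epithelia, was at 30.1, 20.2 and 13.4 CPM in siControl and 1.01, 1.41 and 1.05 CPM in siIGF2BP1. ATP12A had a log2 fold change of -4.197 ± 0.36 at adjusted p = 0.000101, and of -4.44 ± 0.298 at adjusted p = 2.30e-05 without siControl library 3. ALPG, an alkaline phosphatase of germ cells with near-identical paralogs and so an uncertain count, went from 12.3, 8.201 and 5.87 to 0.352, 0.804 and 0.805 CPM. ALPG had a log2 fold change of -3.74 ± 0.4 at adjusted p = 0.000754, and of -3.96 ± 0.36 at adjusted p = 0.000311 without siControl library 3. VTCN1, the immune checkpoint ligand B7-H4, went from 3.72, 2.2 and 10.8 to 0.201, 0.151 and 0.224 CPM. VTCN1 had a log2 fold change of -4.84 ± 0.63 at adjusted p = 0.00259, and of -3.92 ± 0.45 at adjusted p = 0.00131 without siControl library 3. RBBP8NL held 318, 205 and 64 counts in the control libraries and 0, 2 and 3 in the knockdown libraries, a ratio of summed counts of 116 with a 95% counting interval of 49.5 to 359. RBBP8NL had a log2 fold change of -6.87 ± 0.896 at adjusted p = 0.00253, and of -7.31 ± 0.67 at adjusted p = 0.000311 without siControl library 3. Among 289 solute carriers 2 rose and 5 fell (2.42%, near the 1.62% of all genes tested), and 3 and 5 did so without siControl library 3, with medians of -0.04 and -0.03 with and without siControl library 3. SLC25A18, a mitochondrial glutamate carrier, went from 15.2, 11.5 and 12.6 to 0.931, 1.21 and 1.61 CPM. SLC25A18 had a log2 fold change of -3.38 ± 0.32 at adjusted p = 0.000275, and of -3.41 ± 0.32 at adjusted p = 0.000387 without siControl library 3. SLC2A1, the glucose transporter GLUT1, went from 354, 289 and 453 to 128, 132 and 142 CPM. SLC2A1 had a log2 fold change of -1.45 ± 0.31 at adjusted p = 0.0412, and of -1.26 ± 0.33 at adjusted p = 0.0682 without siControl library 3. SLC2A1 failed without siControl library 1 or 3 (then at adjusted p = 0.0849 and 0.0682) or siIGF2BP1 library 1, 2 or 3 (then at adjusted p = 0.193, 0.182 and 0.0896). The other genes of this group that were not named as failing passed with any library left out.

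Genes that rose were fewer, and 9 of the 54 kept their calls with any library left out. CFI, complement factor I, a protease that shuts off complement, was at 0.433, 0.597 and 0.06402 CPM in siControl and 36.97, 38.7 and 22.1 CPM in siIGF2BP1. CFI had a log2 fold change of 6.503 ± 0.56 at adjusted p = 0.000101, and of 5.98 ± 0.39 at adjusted p = 2.30e-05 without siControl library 3. LMO2, a LIM-only cofactor of blood and endothelial development, was at 0.408, 0.299 and 0.427 and 3.27, 3.24 and 2.86 CPM. LMO2 had a log2 fold change of 3.04 ± 0.36 at adjusted p = 0.00137, and of 3.13 ± 0.41 at adjusted p = 0.00264 without siControl library 3. ZNF703, a zinc finger corepressor, went from 51.7, 49.4 and 43.8 to 300.2, 345 and 103 CPM. ZNF703 had a log2 fold change of 2.37 ± 0.38 at adjusted p = 0.00852, and of 2.304 ± 0.45 at adjusted p = 0.0217 without siControl library 3. DHRS3, which reduces retinaldehyde, went from 12.7, 12.7 and 8.15 to 148, 164 and 45.2 CPM. DHRS3 had a log2 fold change of 3.41 ± 0.51 at adjusted p = 0.00529, and of 3.23 ± 0.597 at adjusted p = 0.0175 without siControl library 3. CNR1, a cannabinoid receptor, went from 0.331, 0.407 and 0.512 to 4.102, 4.701 and 10.2 CPM. CNR1 had a log2 fold change of 3.91 ± 0.61 at adjusted p = 0.00733, and of 4.09 ± 0.75 at adjusted p = 0.0174 without siControl library 3. LOC100240735 had a log2 fold change of 3.08 ± 0.49 at adjusted p = 0.00858, 3.36 ± 0.59 at adjusted p = 0.0144 without siControl library 3. In 8 of the 9 genes siIGF2BP1 library 3 was the lowest of its group, and in CNR1 it was the highest.

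A pair of genes rose from almost nothing. KRT4, a keratin of mucosal epithelia, held 1, 0 and 0 counts in siControl libraries 1 to 3 and 763, 888 and 326 counts in siIGF2BP1 libraries 1 to 3. The ratio of summed counts was 1997, with a 95% counting interval of 358 to 78928 (adjusted p = 0.00734, and 0.0228 without siControl library 3). HSD17B2, which inactivates sex steroids, held 2, 2 and 3 counts in the controls and 871, 880 and 109 in the knockdown libraries, a ratio of 268 with an interval of 130.0 to 669 (adjusted p = 0.00858, and 0.0248 without siControl library 3). In both genes siIGF2BP1 library 3 was well below the other two knockdown libraries. The direction of the other keratins differed: of 16 tested, KRT19 and KRT17 fell, neither of which passed without siControl library 3. With KRT4, 18.8% of the 16 were called, against 1.62% of all genes tested. The list median was -1.54 and -0.75 with and without siControl library 3. KRT19, a keratin of simple epithelia, was at 125, 80.7 and 241 and 3.52, 4.63 and 19.99 CPM. KRT19 had a log2 fold change of -3.98 ± 0.86 at adjusted p = 0.04096, and of -3.45 ± 0.86 at adjusted p = 0.0595 without siControl library 3. KRT19 failed without siControl library 1 or 3 (then at adjusted p = 0.069 and 0.0595) or siIGF2BP1 library 1 or 2 (then at adjusted p = 0.193 and 0.205). KRT17, which has pseudogenes, had log2 fold changes of -3.82 ± 0.86 at adjusted p = 0.0479 and -2.97 ± 0.799 at adjusted p = 0.0801. KRT17 failed without siControl library 1 or 3 (then at adjusted p = 0.0714 and 0.0801) or siIGF2BP1 library 1, 2 or 3 (then at adjusted p = 0.237, 0.231 and 0.0521).

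**Figure D4:**
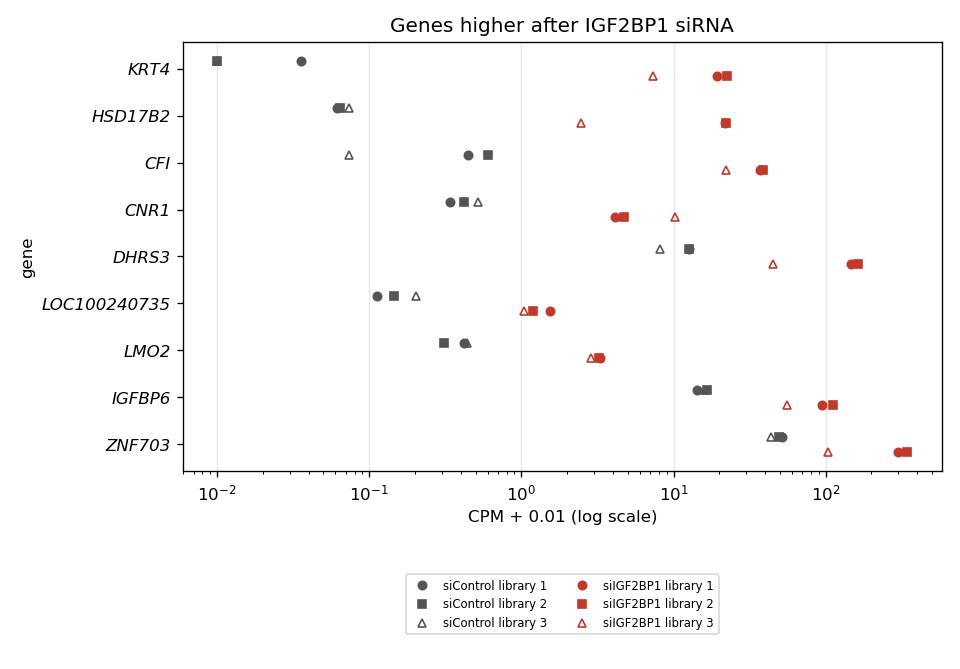
CPM plus 0.01 (horizontal axis, log scale) of the 9 genes called higher in siIGF2BP1 in all 6 fits with a library left out, for the 3 siControl libraries (grey) and the 3 siIGF2BP1 libraries (red), with library 3 of each group as an open triangle. All red symbols lie to the right of all grey ones, and the open red triangle is the lowest of the knockdown libraries in 8 of the 9 genes, all but CNR1.

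The insulin-like growth factor axis, to which the protein's name refers, had 2 of 18 members higher and none lower (11.1%, against 1.62% of all genes tested). IGFBP6, a binding protein with a preference for IGF2, was at 14.3, 16.6 and 16.1 CPM in siControl and 94.2, 112 and 55.4 CPM in siIGF2BP1, and passed with any library left out. IGFBP6 had a log2 fold change of 2.47 ± 0.37 at adjusted p = 0.00529, and of 2.49 ± 0.44 at adjusted p = 0.0151 without siControl library 3. IGF1 was near 0.1 CPM in the controls, at 0.0764, 0.0815 and 0.128 CPM, and at 3.83, 4.02 and 0.358 CPM in the knockdown libraries, with library 3 close to the controls. IGF1 had a log2 fold change of 4.78 ± 0.95 at adjusted p = 0.0273, and of 5.06 ± 1.204 at adjusted p = 0.0488 without siControl library 3. The IGF1 call was lost without siControl library 1 or 2 (then at adjusted p = 0.0947 and 0.0523) or siIGF2BP1 library 1 or 2 (then at adjusted p = 0.108 and 0.104). Without siControl library 3, 4 members were higher, IGFBP3 and STC2 being the additional ones, and the list median went from -0.02 to 0.22.

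The start regions of 4 of these genes are shown. Among the genes of each direction that passed with any library left out, they have the smallest p-values and a sequence in the RefSeq promoter table for GRCh38.p14. Genes on which the deposited tables disagree, and those on a chromosome that was set aside, could not be shown. Of 55 genes that passed with any library left out and on which the tables agree, 31 had a promoter sequence, that chromosome included. Each sequence shown runs from 250 bases before to 50 bases after the gene's start, 5′ to 3′ on the gene's strand. Capitals mark the E-box CACCTG or its reverse complement CAGGTG, the site of zinc finger repressors such as those known to act on CDH1. CFI lies at chr4:109801950-109802249 on the minus strand, IGFBP6 at chr12:53097417-53097716, ATP12A at chr13:24680158-24680457 and SLC25A18 at chr22:17563248-17563547, all 3 on the plus strand.
CFI: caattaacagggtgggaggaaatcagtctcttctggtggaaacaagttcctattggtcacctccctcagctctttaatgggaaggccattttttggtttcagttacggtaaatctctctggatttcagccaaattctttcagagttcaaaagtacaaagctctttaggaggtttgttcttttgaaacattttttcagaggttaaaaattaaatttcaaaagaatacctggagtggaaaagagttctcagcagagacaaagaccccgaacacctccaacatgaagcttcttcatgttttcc
IGFBP6: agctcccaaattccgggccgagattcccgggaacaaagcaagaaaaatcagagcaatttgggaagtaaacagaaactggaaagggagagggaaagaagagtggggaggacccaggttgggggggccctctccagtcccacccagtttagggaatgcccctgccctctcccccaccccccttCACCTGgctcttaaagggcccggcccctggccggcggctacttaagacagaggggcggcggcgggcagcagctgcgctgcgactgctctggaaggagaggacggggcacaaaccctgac
ATP12A: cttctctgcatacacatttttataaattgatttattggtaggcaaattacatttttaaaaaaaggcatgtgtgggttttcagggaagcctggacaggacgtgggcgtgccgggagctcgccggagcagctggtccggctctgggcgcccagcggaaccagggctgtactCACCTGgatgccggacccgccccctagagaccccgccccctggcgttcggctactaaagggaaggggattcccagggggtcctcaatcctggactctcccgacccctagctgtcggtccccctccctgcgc
SLC25A18: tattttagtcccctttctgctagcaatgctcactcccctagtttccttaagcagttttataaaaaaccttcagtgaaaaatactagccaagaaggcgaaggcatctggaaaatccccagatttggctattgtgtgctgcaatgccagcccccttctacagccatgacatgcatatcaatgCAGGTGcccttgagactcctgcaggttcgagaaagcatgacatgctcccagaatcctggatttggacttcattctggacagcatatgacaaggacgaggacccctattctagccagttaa

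The E-box was present 1 time in IGFBP6, ATP12A and SLC25A18 and was not in the CFI window. Over both strands, 19.2% of 13805 promoters of tested genes held it, as did 9 of 37 promoters of genes that rose and 44 of 145 of genes that fell. The octamer ATTTGCAT, bound by POU factors, was in 1.51% of all promoters, in none of the 37 and in 6 of the 145. The CArG box of SRF was in 1.19% of all promoters, in 1 of the 37 and in 1 of the 145. None of the 4 sequences shown held the octamer or the CArG box. These are counts of letters in fixed windows and were not tested.

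A further 5 single genes that rose, SESN2, CLGN, FCGRT, LAMA4 and HOXA5, had calls that were lost with 1 library left out. SESN2, a stress-induced sestrin, was at 68.5, 77.9 and 57.96 CPM in siControl and 116, 122 and 109.5 CPM in siIGF2BP1. SESN2 had a log2 fold change of 0.77 ± 0.12 at adjusted p = 0.00773, and of 0.66 ± 0.102 at adjusted p = 0.00708 without siControl library 3. SESN2 failed without siIGF2BP1 library 1 or 2 (then at adjusted p = 0.0502 and 0.0544). CLGN, the germ cell chaperone calmegin, was at 9.299, 8.85 and 12.8 and 20.7, 18.9 and 22.2 CPM. CLGN had a log2 fold change of 0.995 ± 0.16 at adjusted p = 0.00916, and of 1.18 ± 0.12 at adjusted p = 0.000712 without siControl library 3. CLGN failed only without siIGF2BP1 library 1 (then at adjusted p = 0.0509). FCGRT, the neonatal Fc receptor, went from 11.7, 10.8 and 13.2 to 24.5, 26.1 and 23.2 CPM. FCGRT had a log2 fold change of 1.04 ± 0.19 at adjusted p = 0.0156, and of 1.13 ± 0.198 at adjusted p = 0.0144 without siControl library 3. FCGRT failed without siControl library 1 (then at adjusted p = 0.0575) or siIGF2BP1 library 1 or 2 (then at adjusted p = 0.0801 and 0.0926). LAMA4, a laminin chain of vessel and muscle basement membranes, was the 1 called member of 12 laminins (8.33%, against 1.62% of all genes tested). LAMA4 was at 0.255, 0.462 and 0.405 and 7.02, 6.31 and 5.099 CPM. LAMA4 had a log2 fold change of 4.03 ± 0.77 at adjusted p = 0.02196, and of 4.09 ± 0.96 at adjusted p = 0.0455 without siControl library 3. The LAMA4 call was lost without siControl library 1 (then at adjusted p = 0.0876) or siIGF2BP1 library 1 or 2 (then at adjusted p = 0.0944 and 0.0868). HOXA5, a homeobox factor, was at 3.82, 4.13 and 0.384 CPM in siControl and 28.99, 33.2 and 26.4 CPM in siIGF2BP1, nearly missing from siControl library 3. HOXA5 had a log2 fold change of 3.42 ± 0.61 at adjusted p = 0.0159, and of 2.89 ± 0.33 at adjusted p = 0.00131 without siControl library 3. HOXA5 failed without siIGF2BP1 library 1 or 2 (then at adjusted p = 0.0652 and 0.0724).

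CYP26B1, BMPER, EDNRB and CCNG1 rose as well. CYP26B1, which breaks down retinoic acid, was at 4.87, 4.48 and 4.74 CPM in siControl and 451, 541 and 30.4 CPM in siIGF2BP1, with library 3 more than 400 CPM below the others. CYP26B1 had a log2 fold change of 6.18 ± 1.24 at adjusted p = 0.0294, and of 6.19 ± 1.56 at adjusted p = 0.0626 without siControl library 3. The CYP26B1 call ended without siControl library 1, 2 or 3 (then at adjusted p = 0.0964, 0.0553 and 0.0626) or siIGF2BP1 library 1 or 2 (then at adjusted p = 0.103 and 0.103). BMPER, a regulator of bone morphogenetic proteins, had a tight group of 15.8, 17.5 and 22.2 CPM over 6.52, 5.21 and 3.22 CPM in siControl. BMPER had a log2 fold change of 1.89 ± 0.36 at adjusted p = 0.02196, and of 1.66 ± 0.37 at adjusted p = 0.0385 without siControl library 3. BMPER failed without siIGF2BP1 library 1, 2 or 3 (then at adjusted p = 0.0716, 0.0895 and 0.0646). EDNRB, an endothelin receptor, went from 0.102, 0.136 and 0.3201 to 1.94, 1.46 and 0.604 CPM. EDNRB had a log2 fold change of 2.799 ± 0.51 at adjusted p = 0.0179, and of 3.45 ± 0.55 at adjusted p = 0.008204 without siControl library 3. EDNRB failed without siControl library 1 (then at adjusted p = 0.0686) or siIGF2BP1 library 1 or 2 (then at adjusted p = 0.101 and 0.0866). CCNG1, cyclin G1, was the 1 called member (none without siControl library 3) of 22 cyclins and CDK inhibitors (4.545%, against 1.62% of all genes tested). CCNG1 was at 164, 147 and 129 and 272, 259.7 and 185 CPM. CCNG1 had a log2 fold change of 0.704 ± 0.15 at adjusted p = 0.0437, and of 0.62 ± 0.16 at adjusted p = 0.0639 without siControl library 3. It failed without siControl library 1, 2 or 3 (then at adjusted p = 0.0659, 0.05599 and 0.0639) or siIGF2BP1 library 1 or 2 (then at adjusted p = 0.226 and 0.212).

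Matrix genes, growth factor receptors and WNT ligands had few called members. Of 43 collagens, COL6A3 and COL17A1 fell and none rose (4.65%, against 1.62% of all genes tested). Without siControl library 3 COL2A1 was also higher, with a log2 fold change of 2.1025 at adjusted p = 0.122 with all controls and 2.89 at adjusted p = 0.0376 without that library. The list had medians of -0.49 and -0.16 with and without siControl library 3. COL6A3, a beaded filament collagen, was at 15.7, 10.7 and 49.1 and 1.76, 2.09 and 3.98 CPM. COL6A3 had a log2 fold change of -3.27 ± 0.61 at adjusted p = 0.0204, and of -2.34 ± 0.48 at adjusted p = 0.0265 without siControl library 3. COL6A3 failed without siIGF2BP1 library 1 or 2 (then at adjusted p = 0.141 and 0.1304). COL17A1, a hemidesmosome collagen, was at 0.612, 0.299 and 4.22 and 0.126, 0.151 and 0.134 CPM, highest by far in siControl library 3. COL17A1 had a log2 fold change of -3.62 ± 0.79 at adjusted p = 0.0422, and of -1.71 ± 0.34 at adjusted p = 0.0223 without siControl library 3. COL17A1 failed without siIGF2BP1 library 1, 2 or 3 (then at adjusted p = 0.205, 0.187 and 0.107). FGFR1 was the 1 called member of 23 FGF ligands and receptors (4.35%, against 1.62% of all genes tested), at 324, 200.1 and 633 and 74.7, 82.97 and 112 CPM. FGFR1 had a log2 fold change of -2.1 ± 0.45 at adjusted p = 0.0415, and of -1.54 ± 0.41 at adjusted p = 0.0746 without siControl library 3. FGFR1 failed without siControl library 1 or 3 (then at adjusted p = 0.0689 and 0.0746) or siIGF2BP1 library 1, 2 or 3 (then at adjusted p = 0.212, 0.199 and 0.0742). WNT9A and WNT1 fell among 27 WNT ligands and frizzled receptors (7.41%, against 1.62% of all genes tested), and 1 of the 27 was lower without siControl library 3. WNT9A was at 12.8, 10.8 and 13.4 and 4.83, 5.305 and 4.83 CPM. WNT9A had a log2 fold change of -1.31 ± 0.22 at adjusted p = 0.0131, and of -1.24 ± 0.22 at adjusted p = 0.0144 without siControl library 3. WNT9A failed without siIGF2BP1 library 1 or 2 (then at adjusted p = 0.0944 and 0.0702). WNT1 held 27, 7 and 128 counts in siControl and 1, 2 and 6 in siIGF2BP1, a ratio of 17.8 with a 95% counting interval of 9.16 to 39.7. WNT1 had a log2 fold change of -4.03 ± 0.91 at adjusted p = 0.0478, and of -2.57 ± 0.72 at adjusted p = 0.0939 without siControl library 3. It failed without siControl library 1 or 3 (then at adjusted p = 0.0648 and 0.0939) or siIGF2BP1 library 1, 2 or 3 (then at adjusted p = 0.235, 0.23 and 0.0713).

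Imprinted and non-coding transcripts fell in small numbers. Of 24 imprinted genes DLK1 and PHLDA2 fell and none rose (8.33%, against 1.62% of all genes tested). PLAGL1 was higher as well without siControl library 3. The list medians were -0.33 and -0.24 with and without siControl library 3. DLK1, a Notch-like ligand, was at 9.96, 6.44 and 20.6 and 1.33, 1.78 and 2.17 CPM. DLK1 had a log2 fold change of -2.802 ± 0.49 at adjusted p = 0.0142, and of -2.21 ± 0.42 at adjusted p = 0.0204 without siControl library 3. DLK1 failed without siIGF2BP1 library 1 or 2 (then at adjusted p = 0.103 and 0.0926). PHLDA2, a growth suppressor of the placenta, was at 32.7, 30.8 and 65.1 and 20.6, 21.5 and 19.8 CPM. PHLDA2 had a log2 fold change of -1.06 ± 0.23 at adjusted p = 0.0437, and of -0.62 ± 0.11 at adjusted p = 0.0121 without siControl library 3. PHLDA2 failed without siIGF2BP1 library 1, 2 or 3 (then at adjusted p = 0.193, 0.173 and 0.105). Of 9 lncRNAs known from pluripotent cells 3 fell and none rose (33.3%, against 1.62% of all genes tested), with medians of -2.197 and -0.88. Without siControl library 3 the same number fell and LINC02381 was higher, at 3.65 ± 0.46 at adjusted p = 0.00238. ESRG was at 333, 223 and 1003 and 54.8, 65.4 and 61.6 CPM. ESRG had a log2 fold change of -3.1 ± 0.58 at adjusted p = 0.0204, and of -2.197 ± 0.46 at adjusted p = 0.0278 without siControl library 3. ESRG failed without siIGF2BP1 library 1, 2 or 3 (then at adjusted p = 0.134, 0.1104 and 0.0674). LINC-ROR held 113, 46 and 158 counts in siControl and 2, 0 and 8 in siIGF2BP1, a ratio of 31.4 with an interval of 16.8 to 66.1. LINC-ROR had a log2 fold change of -4.94 ± 0.85 at adjusted p = 0.0138, and of -4.66 ± 0.82 at adjusted p = 0.0146 without siControl library 3. LINC-ROR failed only without siIGF2BP1 library 1 (then at adjusted p = 0.103). LNCPRESS2 had log2 fold changes of -3.06 ± 0.54 at adjusted p = 0.01496 and -2.299 ± 0.42 at adjusted p = 0.0174. LNCPRESS2 failed without siIGF2BP1 library 1 or 2 (then at adjusted p = 0.108 and 0.103). Among 463 numbered long intergenic RNAs 1 rose and 8 fell, which was 7 and 8 without siControl library 3. The share, 1.94%, was near the 1.62% of all genes tested. LINC01356 and LINC02418 fell with any library left out (-2.85 ± 0.396 at adjusted p = 0.00357 and -3.91 ± 0.49 at adjusted p = 0.00197, and -2.28 ± 0.298 at adjusted p = 0.002598 and -3.66 ± 0.47 at adjusted p = 0.002399 without siControl library 3).

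In lists of this size a count of 0 is close to the 1.62% called over all genes tested, so the lists below are given as values only. Of 20 known ribonucleoprotein partners of IGF2BP1 none was called, with medians of -0.06 and -0.05 with and without siControl library 3. PABPC1, the poly(A)-binding protein, was at 1678, 1816 and 1818 CPM in siControl and 1549.6, 1588 and 1687 CPM in siIGF2BP1, a log2 fold change of -0.14 ± 0.12 at adjusted p = 0.606, and of -0.12 ± 0.097 at adjusted p = 0.6197 without siControl library 3. YBX1, an mRNA packaging protein, was at 1625, 1660.1 and 1954 and 1795, 1871 and 1401 CPM, a log2 fold change of -0.05 ± 0.19 at adjusted p = 0.928, and of 0.04 ± 0.19 at adjusted p = 0.952 without siControl library 3, with overlapping groups. None of 18 m6A writers, erasers and readers and none of 26 mRNA decay and deadenylation genes passed, with medians of 0.01 and 0.05, and -0.02 and 0.01. None of 67 translation factors and none of 57 splicing factors and hnRNP genes passed either, with medians of 0.098 and 0.03, and 0.01 and 0.09. Of 16 genes of the LIN28 and let-7 axis none passed with all controls and 1 was higher without siControl library 3. LIN28A, the let-7 inhibitor, was at 358, 221 and 658 and 144, 157 and 57.05 CPM, groups that did not overlap, with a log2 fold change of -1.79 ± 0.89 at adjusted p = 0.365, and of -1.28 ± 0.95 at adjusted p = 0.577 without siControl library 3. HMGA1, a chromatin protein whose mRNA is a let-7 target, was at 1707, 1929 and 1656 and 1380.3, 1658 and 1126 CPM, a log2 fold change of -0.35 ± 0.34 at adjusted p = 0.663, and of -0.39 ± 0.38 at adjusted p = 0.694 without siControl library 3. A p above the threshold does not show that these levels were alike.

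Several housekeeping and signalling lists had no call with all controls, and their medians are given with and without siControl library 3. None of 46 proteasome, 78 mitochondrial ribosomal and 79 respiratory chain genes passed, with medians of 0.14 and 0.17, 0.15 and 0.104, and 0.22 and 0.12. None of 27 Polycomb, 21 Notch and 38 receptor tyrosine kinase genes passed, with medians of 0.07 and 0.01, 0.14 and -0.05, and -0.07 and -0.203, and 1 Notch gene, HES1, was higher without siControl library 3. None of 13 hedgehog genes passed, with a median of 0.09 that was within 0.01 of 0 without that library. The 7 metallothioneins and 31 interleukins and chemokines had no call but low medians of -2.71 and -1.401, which were -1.34 and 0.38 without siControl library 3. The 12 LIM homeobox genes had no call and a median of 0.62, against 0.15 without that library and 3.99 against it alone. Sign or size of the last 3 medians thus moved with siControl library 3.

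**Figure D5:**
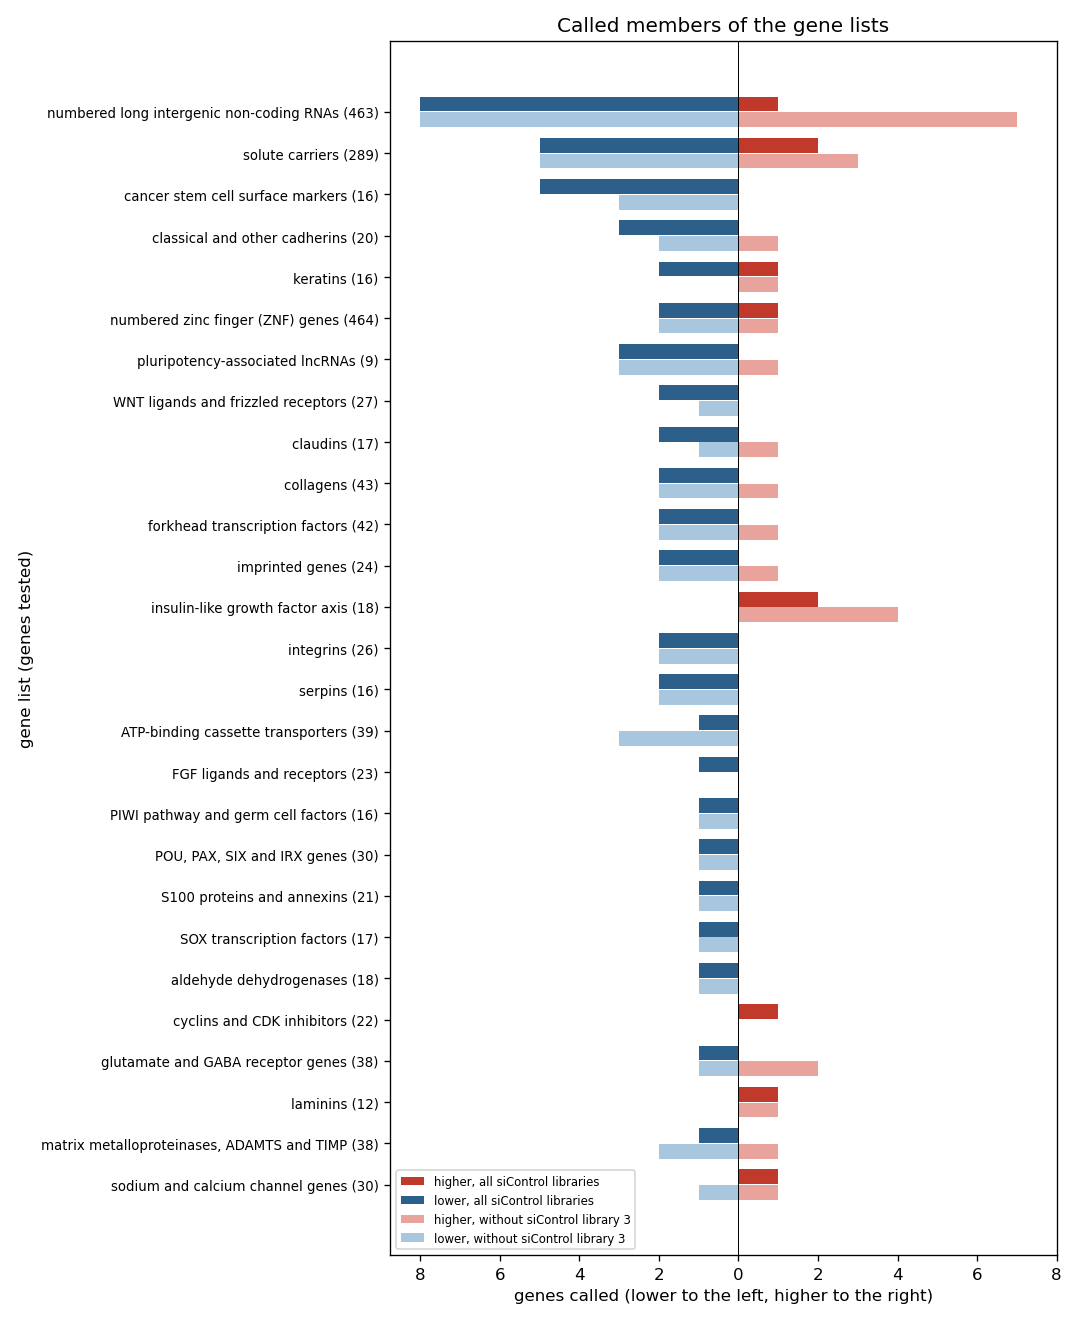
Number of genes called lower (left of 0) and higher (right of 0) in siIGF2BP1 in the 27 lists that had a call, with the number of genes tested in brackets. Dark bars use all siControl libraries and pale bars leave out siControl library 3, and the widest gap between them is in numbered long intergenic RNAs, with 1 gene higher against 7.

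Among 301 called genes with a place in the annotation, 24 had a called neighbour, in 11 pairs of the same direction and 1 of opposite direction. Over all genes tested 1.62% were called, but the share of them with a called neighbour was not counted. No clustering is therefore read from these pairs. Most called genes fell, and 70.5% of all possible pairs of these 301 genes share a direction. The opposite pair was DHRS3, which rose, and AADACL3, which fell. CDH3 and CDH1 fell as neighbours, and so did CD9 and VWF. DNMT3L fell beside AIRE, a transcriptional regulator of the thymus, which was at 5.83, 3.83 and 1.09 CPM in siControl and 0, 0.0251 and 0.268 CPM in siIGF2BP1. AIRE had a log2 fold change of -5.11 ± 1.08 at adjusted p = 0.0377, and of -5.53 ± 0.96 at adjusted p = 0.0137 without siControl library 3, and failed without siControl library 1 (then at adjusted p = 0.0893) or siIGF2BP1 library 1 or 2 (then at adjusted p = 0.152 and 0.193). HOXB3 rose beside HOXB4, homeobox factors at 3.31, 3.39 and 1.22 and 0.153, 0.407 and 0.0854 CPM in siControl and 16.6, 18.4 and 28.3 and 3.98, 3.47 and 7.16 CPM in siIGF2BP1. Their log2 fold changes were 2.999 ± 0.54 at adjusted p = 0.0163 and 4.51 ± 0.74 at adjusted p = 0.00965, and 2.65 ± 0.56 at adjusted p = 0.0305 and 4.11 ± 0.82 at adjusted p = 0.0228 without siControl library 3. HOXB3 failed without siControl library 1 (then at adjusted p = 0.0513) or siIGF2BP1 library 1 or 2 (then at adjusted p = 0.0503 and 0.055), and HOXB4 without siControl library 1 (then at adjusted p = 0.0503). Counting by strand is not given in the sources used here, so reads of overlapping neighbours cannot be told apart.

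The 5 genes with at least 5 CPM in a group whose fold change moved most toward 0 without siControl library 3 were S100A14, CDCP1, EPPK1, KIAA0040 and PODXL. S100A14, a calcium-binding protein of epithelia, was at 1.09, 0.706 and 13.2 CPM in siControl and 0.227, 0.176 and 0.291 CPM in siIGF2BP1, and its log2 fold change of -4.42 ± 0.95 at adjusted p = 0.0407 became -1.95 ± 0.39 at adjusted p = 0.0235 without that library. The groups did not overlap, and siControl library 3 was more than 10 times above the other controls. CDCP1, a transmembrane substrate of SRC kinases, went from -3.61 ± 0.73 at adjusted p = 0.0315 to -1.997 ± 0.39 at adjusted p = 0.0223, and EPPK1, the linker protein epiplakin, from -2.67 ± 0.598 at adjusted p = 0.0466 to -1.47 ± 0.38 at adjusted p = 0.0684. KIAA0040 went from -2.296 ± 0.52 at adjusted p = 0.0481 to -1.202 ± 0.29 at adjusted p = 0.0527. Without siIGF2BP1 library 1, 2 or 3 none of these 4 passed, with S100A14 failing without siIGF2BP1 library 1, 2 or 3 (then at adjusted p = 0.196, 0.205 and 0.0944), CDCP1 without siIGF2BP1 library 1, 2 or 3 (then at adjusted p = 0.177, 0.156 and 0.06596), EPPK1 without siControl library 1 or 3 (then at adjusted p = 0.0541 and 0.0684) or siIGF2BP1 library 1, 2 or 3 (then at adjusted p = 0.22, 0.218 and 0.102) and KIAA0040 without siControl library 1 or 3 (then at adjusted p = 0.0555 and 0.0527) or siIGF2BP1 library 1, 2 or 3 (then at adjusted p = 0.193, 0.165 and 0.126). Against siControl library 3 alone, 39.8% of 19663 genes passed, which is 7828 genes.

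Leaving out siControl library 3 also brought in genes. Among genes tested in both fits, 270 passed only without it, 176 higher and 94 lower, and 169 of these had the opposite sign against library 3 alone. KIF5A, a neuronal kinesin, was at 0.739, 0.5702 and 10.6 CPM in siControl and 9.19, 10.3 and 7.51 CPM in siIGF2BP1, with siControl library 3 above all knockdown libraries. Its log2 fold change was 1.17 ± 0.81 at adjusted p = 0.521 with all controls and 3.77 ± 0.41 at adjusted p = 0.000938 without library 3. ELOVL2, an elongase of long fatty acids, was at 1.12, 0.434 and 12.3 and 12.2, 10.8 and 2.37 CPM, with log2 fold changes of 0.86 ± 0.902 at adjusted p = 0.687 and 3.43 ± 0.69 at adjusted p = 0.02304. HOXB2 was at 0.764, 0.462 and 2.902 and 8.58, 10.5 and 16.4 CPM, groups that did not overlap, with log2 fold changes of 3.09 ± 0.71 at adjusted p = 0.0511 and 4.26 ± 0.73 at adjusted p = 0.01301. LINC02381 went from 2.3 ± 0.62 at adjusted p = 0.0952 to 3.65 ± 0.46 at adjusted p = 0.00238, and MIR205HG, the host gene of miR-205, from -3.92 ± 0.91 at adjusted p = 0.0541 to -4.09 ± 0.95 at adjusted p = 0.04395. LHX8, a LIM homeobox factor, was at 50.6, 55.6 and 0.107 and 42.3, 37.8 and 48.8 CPM and did not pass in either fit, at 0.28 ± 0.99 at adjusted p = 0.921 and -0.31 ± 0.14 at adjusted p = 0.314.

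Set directly against the siSRF libraries, the siIGF2BP1 libraries differed in IGF2BP1 itself and in no other gene that passed, 1 of 18760 genes tested (0.00533%). The log2 difference in IGF2BP1, siIGF2BP1 minus siSRF, was -1.96 ± 0.16 with a 95% interval of -2.27 to -1.64 (adjusted p = 0.000521). The 95% intervals of these differences use the normal quantile times the SE and are somewhat too narrow for so few libraries. Without adjustment 53 genes had a p under 0.05. KRT4 and HSD17B2, each higher in siIGF2BP1 than in siSRF by these means, did not pass (4.33 ± 1.09 and 3.42 ± 0.97, adjusted p = 1.0 for both). KRT4 was at 16.3 ± 7.93 CPM in siIGF2BP1 and 0.804 ± 0.340 CPM in siSRF (mean ± SD, n = 3), and HSD17B2 at 15.5 ± 11.3 and 1.45 ± 0.756 CPM. For CDH1 the difference was 0.32 with a 95% interval of -0.75 to 1.39, and for CFI -0.40 with an interval of -1.23 to 0.44, so neither interval shows that the levels were alike. SRF mRNA itself differed by 0.08 (interval -0.22 to 0.39). Both SRF and IGF2BP1 are genes on which the deposited tables differ. The tables were compared only in the siControl and siIGF2BP1 libraries, so the siSRF values of both genes were not checked in this way. The siSRF and siIGF2BP1 comparisons with siControl share the control libraries, so their likeness there is not given as a result.

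The share of genes called was higher below a mean of 10 CPM than above it, and calls fell in both main transcript classes. The share called was 1.90% of 3471 genes with a mean under 1 CPM, 3.01% of 4518 genes between 1 and 10, 0.924% of 8438 genes between 10 and 100, and 0.986% of 2333 genes above 100 CPM. Of 15819 protein-coding genes tested 49 rose and 219 fell (1.69%), and of 1823 lncRNA genes 4 rose and 21 fell (1.37%). Both shares were near the 1.62% of all genes tested.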

How the data were processed

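The 15 NTERA2 libraries were read from both ends on a DNBSEQ instrument, per the labels' protocols. The submitters' processing notes name STAR, SAMtools, featureCounts and the build GRCh37. The annotation and the use of strand are not given in the sources used here. Raw counts per gene symbol were deposited for 28207 genes, of which 3175 had no count in any library. The second deposited table holds the authors' normalised signal, counts scaled per library, for 20407 genes. It was used for an alternative test and for a comparison of the tables: for 8 genes called lower the values of the 6 libraries departed from the count times the library's factor by more than a tolerance of 1e-06. Library totals were 35275570 to 44996064 counts. Columns carry the siRNA and no replicate number, 0 sample columns were left unused, and no GRCh37 genome was used here.

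Groups were compared by the quasi-likelihood test of edgeR 4.0.16 (R 4.3.3) in 1 fit of 15 libraries and 5 groups with TMM scaling and filterByExpr at a minimum count of 10, which left 18760 genes and 10 residual degrees of freedom. Benjamini-Hochberg adjustment ran over every gene tested, and genes with an adjusted p under 0.05 are called. The log2 fold change is given ± SE. The SE comes from the pooled spread of all groups. For principal components CPM were taken to log2 with a prior count of 2. The fit was tested on simulated data with the same dispersion for every gene and no divergent library. That test does not show how the fit behaves with libraries such as siControl library 3. Members, gene lists and rules were chosen with earlier results of these data known. They comprise 62 lists and a rule that takes the IGF2BP genes, the 15 largest changes in each direction with at least 5 CPM in a group and no overlap, the 10 smallest p-values in each direction with at least 50 CPM and the 10 smallest in each direction without siControl library 3. It also takes the 5 genes that moved most without that library, the 5 largest called only without it, and up to 4 members of each list (up to 2 where none passed). Of 172 genes the rule takes, those that bear on the groups described are named, and genes outside it are marked as chosen after their values were seen. Lists are described by counts and medians with no set test. Alternatives were each library left out, library 3 of every group left out, DESeq2 1.42.0, limma-voom and limma-trend (limma 3.58.1, the latter on log2 of the normalised value plus 1), RLE factors, no filter and only the 6 libraries. Added after seeing the data were siControl libraries 1 and 2 left out, and the 8 genes left out. Counting intervals are exact 95% binomial intervals and cover counting error only.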

Additional observations from a re-analysis of the deposited data

How the results depend on the processing

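The count of genes called, 303, was 317 with RLE factors, 244 with no filter, 245 by limma-voom, 334 by limma-trend on the normalised values and 295 without the 8 genes on which the tables differ. It was 1111 by DESeq2 (258 higher, 853 lower), 9122 with library 3 of every group left out (3955 and 5167), 7828 with siControl libraries 1 and 2 left out (4082 and 3746) and 4 with only the 6 libraries in the fit (0 and 4). In that last fit the spread is estimated within these 2 groups alone, and with library 3 of every group left out it rests on pairs of libraries that lay closer together. With 1 library left out the count ran from 67 to 581, that of genes higher from 10 to 220 and that of genes lower from 57 to 531. The cause of these differences was not tested. The count against siSRF was 1 with any library of the 2 groups left out. No paired analysis was possible because the columns carry no replicate numbers.

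Of the named genes that were called, none reversed: 1072 values kept their call and 355 missed the threshold, over 14 alternatives each. The groups of these called genes did not overlap, so leaving out libraries could not reverse them. Named genes that were not called reversed in 9 cases. ELOVL2 (-0.54) and KIF5A (-0.23) reversed with siControl libraries 1 and 2 left out. LHX8 and LHX9 reversed with library 3 of every group left out and passed the threshold there as lower (-0.46 at adjusted p = 0.000181 and -0.42 at adjusted p = 6.71e-05), and YBX1 reversed without passing (0.11 at adjusted p = 0.145). With 1 library left out LHX8 ran from -0.31 to 0.76, LHX9 from -0.29 to 0.78 and YBX1 from -0.13 to 0.073. List medians moved by more than the spread between knockdown libraries without siControl library 3 in 32 of 62 lists. For genes with a handful of counts in 1 group, such as KRT4, ZNF750 and RBBP8NL, depth limits the ratio to its counting interval.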
